A study of Homo sapiens with 15 samples.

Results

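The aminoacyl-tRNA synthetases are the enzymes that join each amino acid to its transfer RNA (tRNA), and 38 genes of this family and its partners were followed in Caco-2 cells exposed to dishwasher rinse aid. The members were taken by symbol and comprised 19 cytosolic synthetase genes, 3 genes of partner proteins (AIMP1, AIMP2 and EEF1E1) and 16 mitochondrial synthetase genes, whose symbols end in 2. Every one of the 38 was found among the 60601 Ensembl gene identifiers that the count files shared, and 37 passed the filter on low counts, VARS2 being the exception. Caco-2 is an established human colorectal carcinoma line that grows as an epithelial monolayer. Monolayers were exposed for 24 h to rinse aid at 1:10000 or at 1:40000, so that the stronger solution was 4 times as concentrated, or were left unexposed. Each of the 3 groups had 5 polyadenylated RNA libraries, and nothing in the labels says that these came from separate cultures, so a p-value here reflects library spread, which may be technical.

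Human cells keep a cytosolic set of synthetases for proteins made from nuclear messages and a mitochondrial set for the few proteins that mitochondria translate themselves, and both sets are encoded in the nucleus. GARS1 and KARS1 are exceptions, since each encodes the cytosolic and the mitochondrial form of its enzyme, for glycine and for lysine. In the cytosol EPRS1, IARS1, LARS1, MARS1, QARS1, RARS1 and KARS1 are among the synthetases of a multi-synthetase complex held together by AIMP1, AIMP2 and EEF1E1. Many cytosolic synthetase genes are known targets of ATF4, the transcription factor of the amino acid response and the integrated stress response, which binds a C/EBP-ATF response element.

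The count files differed in ways that touch these comparisons. Total counts ran from 5489425 to 9555632 at 1:10000, from 2551839 (replicate 2) to 172092447 (replicate 1) at 1:40000, and from 4333226 to 14230853 in unexposed cells. Per the file headers, the rinse aid files came from HISAT2 and the control files from RNA STAR, and the 2 sets listed 61544 and 60649 genes, so exposure cannot be told apart from aligner and annotation in either comparison with unexposed cells, whereas the dilutions share both. Of 8 epithelial and intestinal markers, EPCAM, CDH1, KRT8, KRT18, VIL1, CDX2 and HNF4A were expressed in all 15 libraries, while KRT20 did not exceed 0.2 counts per 1000000 (CPM). The leukocyte marker PTPRC was at 0 in all 15 libraries, and the fibroblast markers DCN and COL1A2 did not exceed 0.222 CPM. Other fibroblast markers were expressed: COL1A1 reached 108 CPM at 1:40000, COL3A1 41.6 CPM at 1:10000 and PDGFRB 35.9 CPM in unexposed cells. Of the endothelial markers, PECAM1 reached 11.0 CPM at 1:40000, VWF 1.24 CPM at 1:10000 and CDH5 0.203 CPM at 1:10000. Summed over 5 fibroblast markers, COL1A1 among them, the level was 58.0 to 77.8 CPM at 1:10000 and 102 to 132 CPM at 1:40000, against 129 to 152 CPM in unexposed cells. The intestinal transcription factor gene HNF4A ran from 193 to 233 CPM at 1:10000 and from 400.3 to 485 CPM at 1:40000, against 538 to 629 CPM in unexposed cells. CDX2, another, ran from 53.6 to 70.3 CPM at 1:10000 and from 182 to 205 CPM at 1:40000. In unexposed cells CDX2 ran from 149 to 191 CPM. KRT8 ran from 4933 to 5760 CPM at 1:10000, above its 3253 to 4516 CPM in unexposed cells. KRT18 ran from 3627 to 4532 CPM at 1:10000, above its 1991 to 2681 CPM in unexposed cells. CDH1 and VIL1 lay below their unexposed ranges at 1:10000, and EPCAM overlapped its own. The 8 markers summed to 11248 to 13228 CPM at 1:10000 and 9045 to 10348 CPM at 1:40000. Their sum in unexposed cells was 9297 to 11043 CPM. The part of these shifts in the results was not tested. Fewer cells of a type cannot be told apart from less RNA per cell in these bulk libraries.

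In cells exposed at 1:10000, messages of most cytosolic synthetases were more abundant than in unexposed cells, led by the seryl, glycyl, methionyl and alanyl enzymes at 2.46- to 2.60-fold. Of the 19 cytosolic genes, 14 were called higher, 4 were called lower and QARS1 was not called. A gene was called at a Benjamini-Hochberg adjusted p under 0.05 in edgeR's quasi-likelihood test over 13158 genes, and 34.8% of those genes were called higher and 36.2% lower in this comparison. The median log2 fold change was 0.51 over the 19 cytosolic genes and -0.02 over all genes tested. Increases of at least 2-fold were called for 5 of the 19 (SARS1, GARS1, MARS1, AARS1 and WARS1), against 11.7% of all tested genes. The 1:10000 and unexposed libraries did not overlap for 17 of the 19, against 57.8% of all tested genes.

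At 1:40000, 11 of the 19 cytosolic genes were called higher than in unexposed cells and 5 lower, while FARSB, KARS1 and QARS1 were not called. Over all tested genes 26.1% were called higher and 26% lower in that comparison. The median was 0.34 over the cytosolic genes and -0.00 over all genes. Libraries did not overlap for 16 of the 19, against 36.3% of all tested genes, and 5 genes rose by at least 2-fold (SARS1, AARS1, IARS1, GARS1 and MARS1), against 6.68%. These counts share their unexposed libraries with those at 1:10000. VARS1 and CARS1, both called lower at both dilutions, lie at loci with annotated transcripts outside the primary assembly. Without this pair, 14 of 17 were higher and 2 lower at 1:10000 (median 0.54), and 11 of 17 were higher and 3 lower at 1:40000 (median 0.38).

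**Figure D1:**
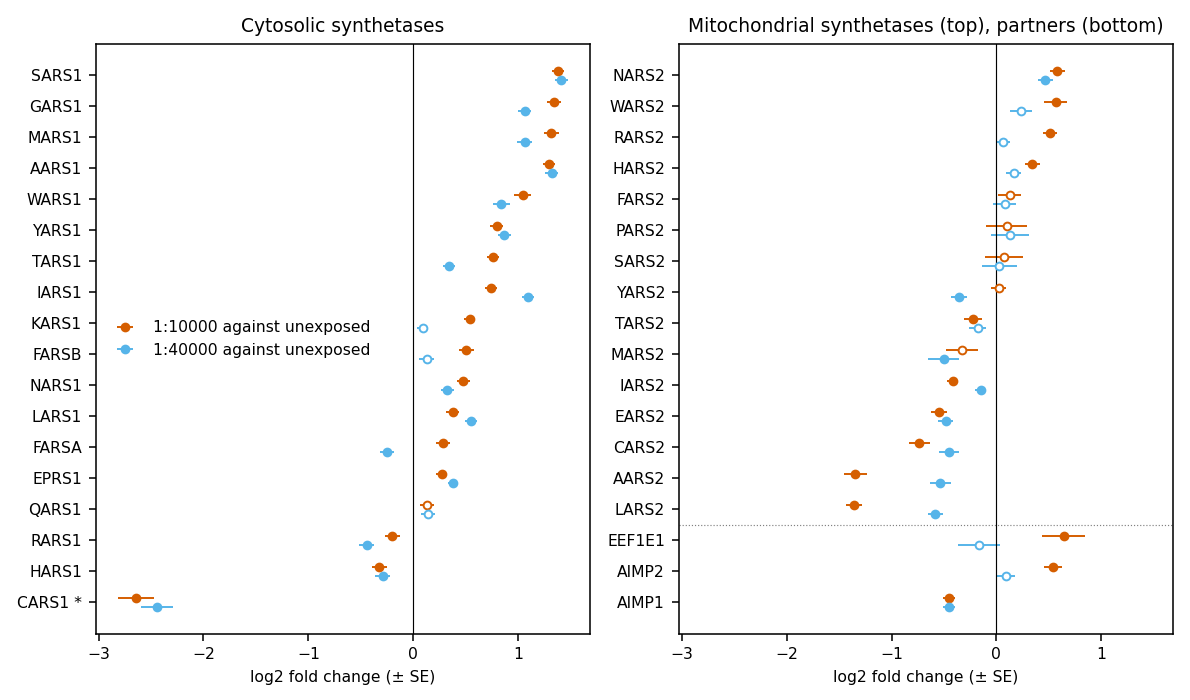
Log2 fold change (± SE) against unexposed cells of 18 cytosolic synthetases (left), and of 15 mitochondrial synthetases and the 3 complex partners (right), for rinse aid at 1:10000 (orange) and 1:40000 (blue). Filled points had an adjusted p under 0.05. The asterisk marks CARS1, whose locus has transcripts outside the primary assembly. SARS2 also has such transcripts and carries no asterisk. VARS1 (-5.70 and -10.96) lies off the scale and is not drawn. Most cytosolic points lie right of 0, and mitochondrial points lie on both sides.

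SARS1, which charges tRNA with serine and lies at chr1:109213918-109238169 (GRCh38, GENCODE 29, as for all gene positions given here), had the largest rise at 1:10000. Its libraries held 214, 215, 209, 201 and 197 CPM at 1:10000 and 234, 222, 201, 206 and 197 CPM at 1:40000, against 81.5, 81.8, 76.6, 76.3 and 81.9 CPM in unexposed cells. Every exposed library lay above every unexposed one, and the dilutions overlapped. The change was 2.60-fold at 1:10000 (log2 fold change 1.38 ± 0.06, adjusted p = 3.2e-16) and 2.66-fold at 1:40000 (log2 fold change 1.41 ± 0.06, adjusted p = 2.4e-16).

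AARS1, the alanyl enzyme, at chr16:70252295-70289543, held 866, 878, 901, 859 and 841 CPM at 1:10000 and 1005, 857, 822, 872 and 861 CPM at 1:40000, against 328, 366, 383, 357 and 334 CPM in unexposed cells. Replicate 1 at 1:40000, the deepest library, was the highest, and exposed and unexposed libraries did not overlap. AARS1 rose 2.46-fold at 1:10000 (log2 fold change 1.30 ± 0.06, adjusted p = 1.1e-15) and 2.50-fold at 1:40000 (log2 fold change 1.32 ± 0.06, adjusted p = 9.8e-16), and the dilutions did not differ by the test (log2 fold change -0.02 ± 0.06).

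GARS1, at chr7:30594681-30634033, encodes the glycyl enzyme of both compartments. It stood at 558, 548, 489, 481 and 461 CPM at 1:10000 and 447, 424, 414, 396 and 409 CPM at 1:40000, against 186, 192, 223, 198 and 202 CPM in unexposed cells. The 3 groups did not overlap, with the 1:10000 libraries highest. GARS1 rose 2.53-fold at 1:10000 (log2 fold change 1.34 ± 0.06, adjusted p = 1.9e-15) and 2.09-fold at 1:40000 (log2 fold change 1.06 ± 0.06, adjusted p = 3.2e-13), and was higher at 1:10000 than at 1:40000 by 0.28 ± 0.06 on the log2 scale (adjusted p = 0.00045).

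MARS1, at chr12:57475445-57517569, makes the methionyl enzyme that charges both initiator and elongator tRNA. Its level was 414, 495, 435, 417 and 426 CPM at 1:10000 and 406, 341, 357, 359 and 366 CPM at 1:40000, against 149, 165, 200.4, 179 and 184 CPM in unexposed cells. The groups did not overlap in any comparison, and the rise was 2.49-fold at 1:10000 (log2 fold change 1.32 ± 0.07, adjusted p = 2.6e-14) and 2.09-fold at 1:40000 (log2 fold change 1.06 ± 0.07, adjusted p = 3.4e-12). MARS1 shares 355 exon bases with DDIT3 and 519 with ARHGAP9 on the opposite strand, and whether reads were counted by strand is not given in the sources used here. DDIT3, the stress transcription factor CHOP, was at 88.8 CPM at 1:10000 and 8.84 CPM in unexposed cells, and its part in the MARS1 counts was not tested.

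**Figure D2:**
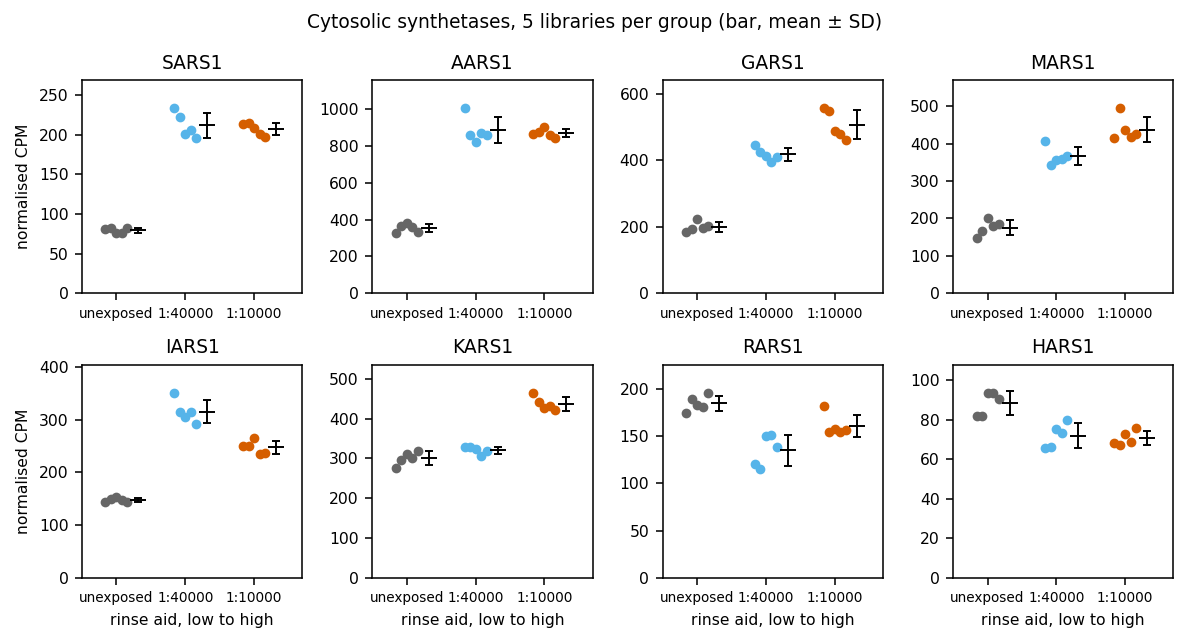
TMM-normalised CPM of 8 cytosolic synthetases in each library (points), with the mean ± SD of the 5 libraries beside them, for unexposed cells, rinse aid 1:40000 and rinse aid 1:10000. SARS1, AARS1, GARS1 and MARS1 lay above the unexposed level at both dilutions, KARS1 at 1:10000, IARS1 was highest at 1:40000, and RARS1 and HARS1 lay lower.

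The promoters of these genes were searched for the core of the C/EBP-ATF response element, TGATGNAA or its reverse complement TTNCATCA, between 250 bases before and 50 bases after each RefSeq start (GRCh38.p14). A match was present for 7 of the 16 cytosolic members with an entry, for 0 of the 3 partners and for 1 of 14 mitochondrial members, and for 4.46% of the 27305 genes with a window (3.62% of 35116 windows). LARS1, VARS1, YARS1, AARS2 and VARS2 had no entry. The matches are printed 5′ to 3′ on the gene's strand with the matching letters in capitals, because 3 of the 4 genes with the largest rises carry one.
AARS1: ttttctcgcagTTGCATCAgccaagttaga
CARS1: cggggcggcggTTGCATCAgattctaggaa
GARS1: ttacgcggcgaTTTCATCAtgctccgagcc
IARS1: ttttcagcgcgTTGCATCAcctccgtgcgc
MARS1: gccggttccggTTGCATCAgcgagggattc
NARS1: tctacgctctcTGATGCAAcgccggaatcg
TARS1: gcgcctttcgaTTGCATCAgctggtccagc
YARS2: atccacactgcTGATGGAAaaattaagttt
The stretches lie at chr16:70289675-70289704 (minus strand), chr11:3057407-3057436 (minus), chr7:30594834-30594863 (plus), chr9:92293692-92293721 (minus), chr12:57488053-57488082 (plus), chr18:57621804-57621833 (minus), chr5:33440956-33440985 (plus) and chr12:32756076-32756105 (minus). The match began 187 bases before the start in AARS1, 33 in GARS1, 13 in IARS1, 4 in MARS1, 2 in CARS1 and 197 in YARS2, and at base 15 after the start in NARS1 and base 3 in TARS1. In AARS1, CARS1, IARS1, MARS1 and TARS1 the letters were TTGCATCA, in NARS1 their reverse complement TGATGCAA, in GARS1 TTTCATCA and in YARS2 TGATGGAA. With CARS1 left out, the 6 cytosolic genes with a match were all called higher at 1:10000 than in unexposed cells, with a median log2 fold change of 1.03 and a range of 0.48 to 1.34. Of the 9 without a match in the window, 6 were called higher and 2 lower, with a median of 0.28 and a range of -0.32 to 1.38. SARS1, with the largest rise, and WARS1 were among those without. The other genes with a match did not rise. CARS1 was called lower at 1:10000 (log2 fold change -2.64). The mitochondrial gene YARS2 was not called at 1:10000 (0.02) and was called lower at 1:40000 (-0.36). Of all tested genes, 34.8% were called higher and 36.2% lower at 1:10000 than in unexposed cells. Between the dilutions, which share an aligner, the sets did not stand apart, with 4 of 6 and 5 of 9 called higher at 1:10000 than at 1:40000 and medians of 0.20 with a match and 0.21 without. Of all tested genes, 28.3% were called higher at 1:10000 than at 1:40000. A match describes these letters alone and was not tested for binding.

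TARS1, for threonine, held 447, 396, 394, 394 and 396 CPM at 1:10000 and 282, 315, 320.4, 298 and 298 CPM at 1:40000, against 229.9, 232, 259, 240.1 and 234 CPM in unexposed cells. The 3 groups did not overlap, and replicate 1 stood above the other 1:10000 libraries. TARS1 rose by 0.76 ± 0.06 on the log2 scale at 1:10000 (adjusted p = 9.1e-12) and by 0.34 ± 0.06 at 1:40000 (adjusted p = 1.9e-05).

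IARS1, for isoleucine, took the other order. It stood at 250.1, 249.8, 266, 234 and 237 CPM at 1:10000 and 351, 314, 305, 315 and 291 CPM at 1:40000, against 143, 149, 152, 148 and 144 CPM in unexposed cells. The 1:40000 libraries were the highest of the 3 groups without overlap, and the rise was 1.68-fold at 1:10000 (log2 fold change 0.75 ± 0.06, adjusted p = 2.3e-11) and 2.14-fold at 1:40000 (log2 fold change 1.10 ± 0.06, adjusted p = 2.2e-14).

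LARS1, for leucine, was likewise highest at 1:40000. Its libraries had 278, 253, 255, 229 and 238 CPM at 1:10000 and 303, 306, 269, 275 and 265 CPM at 1:40000, against 200.1, 196, 182, 193 and 193 CPM in unexposed cells. The dilutions overlapped. LARS1 rose by 0.38 ± 0.06 at 1:10000 (log2; adjusted p = 4.8e-06) and by 0.55 ± 0.06 at 1:40000 (adjusted p = 3.3e-08).

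KARS1, which encodes the lysyl enzyme of both compartments, rose at 1:10000. Its libraries held 466, 442, 427, 431 and 421 CPM at 1:10000 and 329, 328, 323, 307 and 318 CPM at 1:40000, against 276, 297, 312, 300.1 and 319.9 CPM in unexposed cells. The 1:10000 libraries lay above the unexposed ones, and those at 1:40000 overlapped them. The log2 fold change was 0.54 ± 0.05 at 1:10000 (adjusted p = 1.6e-09) and 0.09 ± 0.05 at 1:40000 (adjusted p = 0.15).

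FARSA and FARSB encode the catalytic and the partner subunit of the phenylalanyl enzyme, which works as a tetramer of the 2 proteins. FARSA was called in opposite directions at the dilutions. Its libraries held 81.4, 83.2, 90.3, 88.8 and 89.8 CPM at 1:10000 and 58.3, 53.1, 62.1, 59.2 and 64.7 CPM at 1:40000, against 73.9, 70.5, 74.8, 72.5 and 65.8 CPM in unexposed cells. The 3 groups did not overlap, with 1:10000 highest and 1:40000 lowest. The log2 fold change against unexposed cells was 0.28 ± 0.07 at 1:10000 (adjusted p = 0.00049) and -0.25 ± 0.07 at 1:40000 (adjusted p = 0.0023, or 0.075 without the filter on low counts). FARSB ran from 188 to 215 CPM at 1:10000 and from 129 to 173 CPM at 1:40000, against 132 to 149.6 CPM in unexposed cells. It was called at 1:10000 and not at 1:40000 (log2 fold change 0.51 ± 0.07, and 0.13 ± 0.07 at 1:40000, adjusted p = 0.12, or 0.031 without 1:40000 replicate 2).

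EPRS1, which charges both glutamate and proline tRNA, had the smallest called rise at 1:10000. Its libraries held 492, 450.4, 508, 491 and 467 CPM at 1:10000 and 518, 517, 524, 520.2 and 515 CPM at 1:40000, against 386, 415, 409, 404 and 381 CPM in unexposed cells. The 1:40000 libraries lay above every library of the other groups. The log2 fold change was 0.27 ± 0.05 at 1:10000 (adjusted p = 3.2e-05) and 0.38 ± 0.05 at 1:40000 (adjusted p = 7.6e-07).

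The tyrosyl gene YARS1 held 168, 177, 167, 159 and 165 CPM at 1:10000 and 186, 176, 168, 171 and 177 CPM at 1:40000, against 92.9, 85.1, 101, 95.3 and 109 CPM in unexposed cells. Exposed and unexposed libraries did not overlap, and the dilutions did. YARS1 rose by 0.80 ± 0.06 on the log2 scale at 1:10000 and by 0.87 ± 0.06 at 1:40000 (adjusted p = 3.4e-11 and 1.5e-11). WARS1, for tryptophan, averaged 128 ± 9.49 CPM at 1:10000, 110.1 ± 10.2 CPM at 1:40000 and 61.8 ± 7.25 CPM in unexposed cells (SD, n = 5 each). NARS1, for asparagine, averaged 222 ± 20.9 CPM at 1:10000, 199.9 ± 5.74 CPM at 1:40000 and 159.7 ± 8.02 CPM in unexposed cells. Neither of these genes' exposed libraries overlapped the unexposed ones, with log2 fold changes of 1.04 and 0.48 at 1:10000 and of 0.84 and 0.32 at 1:40000, all called. QARS1, the glutaminyl gene, averaged 294 ± 21.3 CPM at 1:10000, 296 ± 24.1 CPM at 1:40000 and 268 ± 20.6 CPM in unexposed cells, and was not called in any comparison (log2 fold change 0.13 ± 0.07, adjusted p = 0.087 at 1:10000). Without unexposed replicate 2 it was called higher at both dilutions (adjusted p = 0.026 at 1:10000 and 0.022 at 1:40000).

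Of the 4 cytosolic genes called lower at 1:10000, HARS1 and RARS1 changed by less than 1.5-fold. HARS1, for histidine, at chr5:140673904-140691862, held 68.5, 67.3, 73.0, 69.0 and 76.0 CPM at 1:10000 and 65.6, 66.1, 75.4, 73.2 and 80.0 CPM at 1:40000, against 81.9, 82.2, 93.9, 93.6 and 90.8 CPM in unexposed cells. Every exposed library lay below every unexposed one, and HARS1 fell at both dilutions (log2 fold change -0.32 ± 0.07 at 1:10000 and -0.29 ± 0.07 at 1:40000, adjusted p = 0.00025 and 0.001). HARS1 shares 437 exon bases with HARS2 on the opposite strand.

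RARS1, for arginine, held 181, 154, 158, 154 and 156 CPM at 1:10000 and 121, 115, 150.0, 151 and 138 CPM at 1:40000, against 175, 189, 183, 181 and 196 CPM in unexposed cells. The 1:40000 libraries lay below all others. At 1:10000 replicate 1 stood among the unexposed libraries and the other 4 below them. RARS1 fell more at 1:40000 (log2 fold change -0.44 ± 0.07, adjusted p = 1.2e-05) than at 1:10000 (-0.20 ± 0.07, adjusted p = 0.015, and 0.057 without replicate 2 at 1:10000). The difference between the dilutions was 0.24 ± 0.07 (adjusted p = 0.0054, and 0.057 without the deepest and shallowest 1:40000 libraries).

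VARS1, for valine, lies in the major histocompatibility complex at chr6:31777518-31795953, where 72 annotated transcripts sit outside the primary assembly. Its raw counts were 1, 0, 26, 45 and 1 at 1:10000 and 9, 0, 2, 0 and 0 at 1:40000, against 451, 1031, 530, 1881 and 886 in unexposed cells. Replicate 1 at 1:40000, with 9 of them, had 172092447 counts in all. VARS1 was near absent from the HISAT2 files of both dilutions, and its fitted log2 fold change was -5.70 ± 0.45 at 1:10000 and -10.96 ± 0.65 at 1:40000.

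CARS1, for cysteine, at chr11:3000922-3057613 with 17 transcripts outside the primary assembly, held 3.98, 4.88, 3.91, 3.20 and 5.58 CPM at 1:10000 and 6.55, 5.73, 3.60, 3.62 and 4.51 CPM at 1:40000, against 25.2, 26.9, 26.0, 25.8 and 29.5 CPM in unexposed cells. Exposed libraries lay far below unexposed ones, with log2 fold changes of -2.64 ± 0.17 and -2.44 ± 0.15. Of the 431 tested protein-coding genes with transcripts outside the primary assembly, 205 (47.6%) lay below -2 on the log2 scale at both dilutions against unexposed cells, and 25 of the 11216 (0.223%) without such transcripts did. For VARS1 and CARS1 the exposure and the alignment cannot be told apart.

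The partners of the multi-synthetase complex did not move as 1 group. EEF1E1, a scaffold protein of the complex, held 24.3, 16.1, 16.9, 11.9 and 12.9 CPM at 1:10000 and 9.57, 8.79, 9.19, 9.26 and 10.2 CPM at 1:40000, against 11.0, 5.87, 14.6, 12.9 and 9.69 CPM in unexposed cells. The 1:10000 and unexposed libraries overlapped, and EEF1E1 was called higher at 1:10000 (log2 fold change 0.64 ± 0.20, adjusted p = 0.0084) and not at 1:40000 (-0.17 ± 0.20, adjusted p = 0.52). It shares 393 exon bases on the same strand with the readthrough gene EEF1E1-BLOC1S5.

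AIMP2, a scaffold of the complex, held 102, 100.5, 114, 122 and 111 CPM at 1:10000 and 70.1, 74.1, 83.0, 89.8 and 85.6 CPM at 1:40000, against 61.3, 71.8, 83.9, 81.0 and 79.0 CPM in unexposed cells. The 1:10000 libraries lay above all unexposed ones, while those at 1:40000 were within the unexposed range in 3 of 5 cases and above it in the other two. The log2 fold change was 0.54 ± 0.08 at 1:10000 (adjusted p = 3.3e-06) and 0.09 ± 0.08 at 1:40000 (adjusted p = 0.36). The eIF2 kinase gene EIF2AK1 overlaps 28.9% of the AIMP2 exon length on the opposite strand.

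AIMP1, a scaffold that is also secreted as a cytokine, fell alike at both dilutions. It held 140.4, 127, 123, 132 and 123 CPM at 1:10000 and 118, 139, 137, 128 and 128 CPM at 1:40000, against 188, 181, 176, 174 and 167 CPM in unexposed cells. All exposed libraries lay below all unexposed ones, and the log2 fold change was -0.45 ± 0.06 at 1:10000 and -0.45 ± 0.06 at 1:40000 (adjusted p = 2.8e-07 and 7.5e-07). Over 7 synthetases of the complex (EPRS1, IARS1, LARS1, MARS1, QARS1, RARS1 and KARS1), 5 were called higher and 1 lower at 1:10000 against unexposed cells (median 0.38), and over the 10 others, VARS1 and CARS1 left out, 9 were higher and 1 lower (median 0.78). At 1:40000 the counts were 4 higher and 1 lower of 7 (median 0.38), and 7 higher and 2 lower of 10 (median 0.59). Of all tested genes, 34.8% were called higher and 36.2% lower at 1:10000, and 26.1% and 26% at 1:40000.

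Among the mitochondrial synthetases some genes were called higher and others lower. At 1:10000, 4 of the 15 tested were called higher than in unexposed cells, 6 lower and 5 neither, near the 34.8% higher and 36.2% lower of all tested genes, with a median log2 fold change of 0.02. At 1:40000, 1 was called higher, 7 lower and 7 neither, against 26.1% higher and 26% lower of all tested genes, with a median of -0.15. Libraries did not overlap for 9 of 15 at 1:10000 and for 7 of 15 at 1:40000, against 57.8% and 36.3% of all tested genes. LARS2 and AARS2 were the members that fell by at least 2-fold, both at 1:10000, where 11.6% of all tested genes did. VARS2, at chr6:30908242-30926459 in the major histocompatibility complex, had 0 counts in all 15 libraries, which allows up to 0.0872 CPM over the 1:10000 libraries, 0.0135 CPM over the 1:40000 libraries and 0.0711 CPM over the unexposed ones (3 counts per group, counting error only). Without the deepest library of each group, a choice made after seeing the data, the limits are 0.116 CPM at 1:10000, 0.0609 CPM at 1:40000 (replicate 1 left out) and 0.109 CPM in unexposed cells (replicate 4 left out). Its exons share 1858 bases with GTF2H4 on the same strand. For VARS2 an absent message cannot be told apart from reads lost in alignment or counting, so these limits hold for counted reads only.

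LARS2, the mitochondrial leucyl enzyme, at chr3:45388506-45549421, fell most. Its libraries held 33.1, 34.2, 40.2, 37.1 and 37.2 CPM at 1:10000 and 54.8, 55.8, 66.2, 67.7 and 65.0 CPM at 1:40000, against 87.1, 93.2, 96.7, 91.6 and 96.8 CPM in unexposed cells. The 3 groups did not overlap and stood in the order of dose. LARS2 was at 0.391 of the unexposed level at 1:10000 (log2 fold change -1.35 ± 0.08, adjusted p = 6.9e-14) and at 0.667 of it at 1:40000 (log2 fold change -0.58 ± 0.07, adjusted p = 3.2e-07).

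AARS2, the mitochondrial alanyl enzyme, at chr6:44299654-44313326, held 15.9, 11.2, 16.5, 17.1 and 15.5 CPM at 1:10000 and 24.9, 25.2, 25.6, 30.2 and 29.1 CPM at 1:40000, against 36.3, 45.9, 36.2, 36.0 and 40.2 CPM in unexposed cells. Again the 3 groups did not overlap and followed the dose, and replicate 2 was the lowest of the 1:10000 libraries. AARS2 was at 0.394 of the unexposed level at 1:10000 (log2 fold change -1.34 ± 0.11, adjusted p = 4.1e-11) and at 0.690 at 1:40000 (log2 fold change -0.53 ± 0.10, adjusted p = 7.1e-05).

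CARS2, the mitochondrial cysteinyl enzyme, has no transcripts outside the primary assembly, unlike CARS1. It held 24.0, 22.2, 25.2, 24.0 and 22.2 CPM at 1:10000 and 24.9, 21.4, 33.4, 27.8 and 33.5 CPM at 1:40000, against 38.1, 39.9, 40.6, 37.9 and 39.5 CPM in unexposed cells. No exposed library reached an unexposed one. The log2 fold change was -0.73 ± 0.10 at 1:10000 (adjusted p = 4.7e-07) and -0.45 ± 0.10 at 1:40000 (adjusted p = 0.00037).

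EARS2, which charges mitochondrial glutamate tRNA and also the glutamine tRNA that GatCAB then converts, held 44.1, 46.2, 43.9, 50.5 and 44.1 CPM at 1:10000 and 46.5, 42.4, 52.7, 47.4 and 47.7 CPM at 1:40000, against 75.1, 63.3, 70.1, 62.3 and 65.4 CPM in unexposed cells. Exposed libraries lay below unexposed ones without overlap, with log2 fold changes of -0.55 ± 0.07 at 1:10000 and -0.48 ± 0.07 at 1:40000 (adjusted p = 4.4e-07 and 5.2e-06).

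IARS2, for isoleucine, had the highest level of the mitochondrial set. It held 384, 341, 337, 329.8 and 345 CPM at 1:10000 and 427, 413, 424, 407 and 419 CPM at 1:40000, against 486, 482, 439, 466 and 446 CPM in unexposed cells. The 3 groups stood in the order of dose without overlap. IARS2 fell by 0.42 ± 0.05 on the log2 scale at 1:10000 and by 0.15 ± 0.05 at 1:40000 (adjusted p = 1.5e-07 and 0.02). The call at 1:40000 was lost with upper-quartile scaling (adjusted p = 0.11), without the filter on low counts (0.47) and without the deepest and shallowest 1:40000 libraries (0.051).

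TARS2, for threonine, held 33.7, 26.6, 28.6, 31.9 and 28.7 CPM at 1:10000 and 31.0, 26.7, 30.9, 32.1 and 32.6 CPM at 1:40000, against 36.0, 35.5, 36.4, 36.6 and 30.9 CPM in unexposed cells. Replicate 5 was the lowest unexposed library and overlapped the exposed ones. TARS2 was called lower at 1:10000 (log2 fold change -0.22 ± 0.08, adjusted p = 0.021), a call lost without replicate 2 or 3 at 1:10000 (adjusted p = 0.086 and 0.051), without unexposed replicate 4 (0.054), or without the filter on low counts (0.075). At 1:40000 it was not called (log2 fold change -0.18 ± 0.08, adjusted p = 0.071, or 0.044 without unexposed replicate 5).

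Among the genes called higher at 1:10000, NARS2, the mitochondrial asparaginyl enzyme, was also called at 1:40000. It held 88.5, 88.7, 79.7, 73.4 and 80.0 CPM at 1:10000 and 78.5, 75.2, 74.2, 73.8 and 76.5 CPM at 1:40000, against 57.5, 58.9, 47.5, 52.6 and 56.9 CPM in unexposed cells. Every exposed library lay above every unexposed one. NARS2 rose by 0.58 ± 0.07 on the log2 scale at 1:10000 and by 0.47 ± 0.07 at 1:40000 (adjusted p = 7.9e-08 and 5.4e-06).

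RARS2, the arginyl enzyme, stood at 89.7, 87.3, 79.5, 80.9 and 79.1 CPM at 1:10000 and 63.8, 63.4, 61.7, 57.8 and 59.2 CPM at 1:40000, against 59.3, 63.0, 54.6, 57.9 and 57.2 CPM in unexposed cells. The 1:10000 libraries lay above all others, and those at 1:40000 overlapped the unexposed ones. RARS2 rose by 0.51 ± 0.07 on the log2 scale at 1:10000 (adjusted p = 1.7e-07), and its log2 fold change at 1:40000 was 0.06 ± 0.07 (adjusted p = 0.43).

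WARS2, for tryptophan, held 34.4, 30.5, 23.6, 27.8 and 26.2 CPM at 1:10000 and 25.5, 19.9, 20.9, 21.3 and 23.6 CPM at 1:40000, against 18.6, 21.4, 16.9, 20.1 and 18.3 CPM in unexposed cells. The 1:40000 libraries overlapped both other groups. Its log2 fold change was 0.57 ± 0.11 at 1:10000 (adjusted p = 4.8e-05) and 0.23 ± 0.11 at 1:40000 (adjusted p = 0.069), the second of which passed without 1:10000 replicate 1 (0.046) or without unexposed replicate 2 (0.043).

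HARS2, for histidine, held 56.5, 60.0, 52.1, 54.5 and 56.9 CPM at 1:10000 and 49.1, 53.5, 47.6, 51.7 and 47.0 CPM at 1:40000, against 42.3, 49.2, 41.5, 44.0 and 42.5 CPM in unexposed cells. The 1:10000 libraries lay above the unexposed ones without overlap. HARS2 and its overlapping neighbour HARS1 were thus called in opposite directions at 1:10000, with a log2 fold change of 0.34 ± 0.07 for HARS2 (adjusted p = 0.00014). At 1:40000 its log2 fold change was 0.16 ± 0.07 with an adjusted p of 0.052, which fell under the threshold without 1:10000 replicate 1 or 2 (0.048 and 0.047), 1:40000 replicate 5 (0.046) or unexposed replicate 2 (0.016).

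YARS2, the tyrosyl enzyme, held 62.8, 60.4, 55.7, 59.2 and 54.6 CPM at 1:10000 and 38.8, 44.3, 48.0, 47.6 and 47.2 CPM at 1:40000, against 59.5, 56.9, 57.7, 60.8 and 53.5 CPM in unexposed cells. The 1:40000 libraries lay below every library of the other groups. It was called lower at 1:40000 (log2 fold change -0.36 ± 0.07, adjusted p = 0.00026) and not at 1:10000 (0.02 ± 0.07, adjusted p = 0.81).

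MARS2, the methionyl enzyme, held 14.3, 18.5, 20.6, 18.9 and 20.8 CPM at 1:10000 and 12.9, 11.8, 20.1, 15.3 and 20.5 CPM at 1:40000, against 23.4, 17.5, 27.3, 23.2 and 26.2 CPM in unexposed cells. All 3 groups overlapped. It was called lower at 1:40000 (log2 fold change -0.50 ± 0.15, adjusted p = 0.0068, and 0.072 without the deepest and shallowest libraries there) and not at 1:10000 (-0.33 ± 0.15, adjusted p = 0.059). At 1:10000 MARS2 was called without unexposed replicate 2 (adjusted p = 0.014) and without 1:40000 replicate 1, 3 or 5 (adjusted p = 0.035, 0.046 and 0.047). FARS2, PARS2 and SARS2, for phenylalanine, proline and serine, were not called in any comparison. FARS2 averaged 14.5 ± 0.976 CPM at 1:10000 and 13.2 ± 1.21 CPM in unexposed cells, PARS2 7.32 ± 2.10 CPM at 1:10000 and 6.66 ± 1.68 CPM in unexposed cells, and SARS2 5.06 ± 0.529 CPM at 1:10000 and 4.85 ± 0.657 CPM in unexposed cells. SARS2 has 14 transcripts outside the primary assembly and shares 46.2% of its exon length with AC011455.2 on the same strand.

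**Figure D3:**
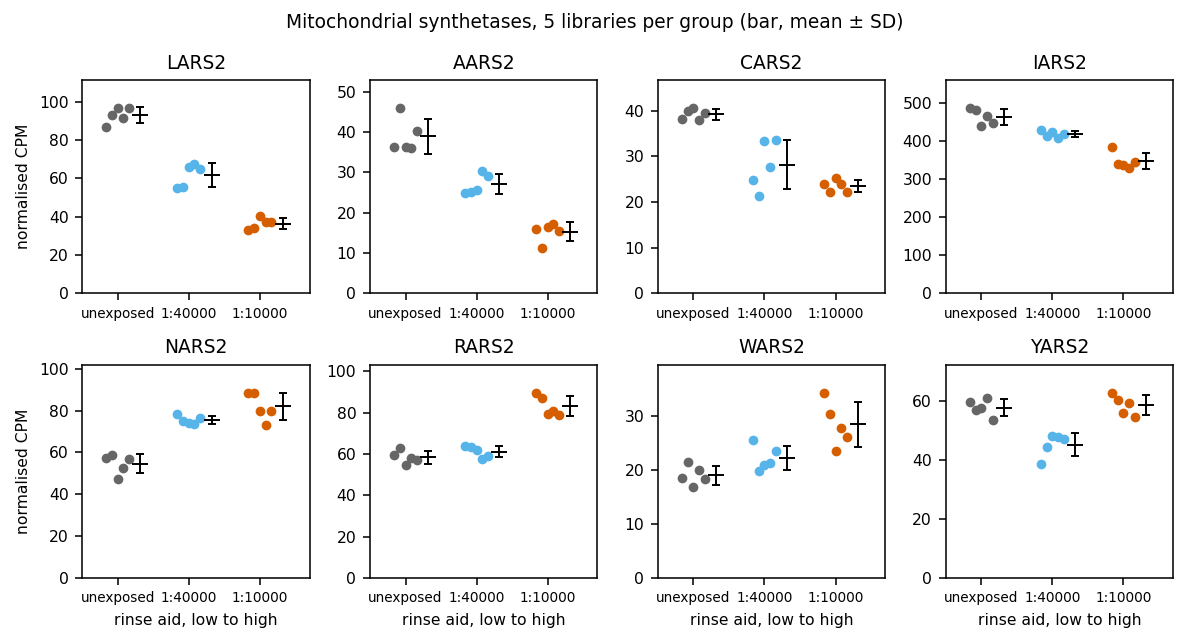
TMM-normalised CPM of 8 mitochondrial synthetases in each library (points), with the mean ± SD of the 5 libraries beside them, for unexposed cells, rinse aid 1:40000 and rinse aid 1:10000. LARS2, AARS2, CARS2 and IARS2 were lower in exposed cells, NARS2 was higher at both dilutions, RARS2 and WARS2 were called higher at 1:10000, and YARS2 was lowest at 1:40000.

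Summed over genes, the cytosolic set lay above and the mitochondrial set below its unexposed level at both dilutions. The 17 cytosolic genes, VARS1 and CARS1 left out, summed to 5171 ± 179 CPM at 1:10000 and 4821 ± 149.5 CPM at 1:40000, against 3160 ± 85.1 CPM in unexposed cells (SD, n = 5 each). The 15 mitochondrial genes with counts summed to 852 ± 30.7 CPM at 1:10000 and 909.6 ± 21.0 CPM at 1:40000, against 1019 ± 29.2 CPM in unexposed cells. Exposed sums ran from 4979 to 5381 CPM at 1:10000 and from 4743 to 5088 CPM at 1:40000 for the cytosolic genes, above the unexposed range of 3030 to 3269 CPM. The mitochondrial sums at 1:10000, 831 to 905 CPM, and at 1:40000, 878 to 931 CPM, lay below the unexposed range of 987 to 1055 CPM. These sums are carried by the most abundant genes, such as AARS1 and IARS2, and no test was made of them.

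The cytosolic and mitochondrial enzymes of the same amino acid were then set against each other within each library, as the log2 ratio of their CPM, for 14 pairs with CARS and VARS left out. At 1:10000 the mean ratio was higher than in unexposed cells for 11 of 14 pairs, without overlap for 8, and lower without overlap for 2, with a median difference of 0.80. At 1:40000 it was higher for 10, without overlap for 8, and lower without overlap for 1, with a median difference of 0.75. Between the dilutions, which share an aligner, the ratio was higher at 1:10000 than at 1:40000 for 6 of 14, without overlap for 4, and lower without overlap for 1, with a median difference of -0.07. EPRS1 enters both the glutamate and the proline pair. Of all tested genes taken singly, 57.8% did not overlap at 1:10000 against unexposed cells. That share was 36.3% at 1:40000 and 40.3% between the dilutions. No such share was computed for the ratios of other gene pairs.

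The alanine pair differed most. The log2 ratio of AARS1 to AARS2 was 5.85 ± 0.25 at 1:10000 and 5.03 ± 0.19 at 1:40000, against 3.19 ± 0.17 in unexposed cells (SD, n = 5 each). For leucine, LARS1 over LARS2 was 2.79 ± 0.19 at 1:10000 and 2.20 ± 0.24 at 1:40000, against 1.05 ± 0.11 in unexposed cells. In both pairs the cytosolic gene rose and the mitochondrial gene fell, and the 3 groups did not overlap. For isoleucine, IARS1 over IARS2 was -0.49 ± 0.10 at 1:10000, against -1.65 ± 0.09 in unexposed cells, so that IARS2 counts exceeded IARS1 counts in every group mean.

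For histidine and arginine the ratio lay on the other side. HARS1 over HARS2 was 0.34 ± 0.12 at 1:10000, against 1.01 ± 0.17 in unexposed cells, and RARS1 over RARS2 was 0.95 ± 0.08 at 1:10000, against 1.66 ± 0.10 in unexposed cells. In these pairs the cytosolic gene was called lower and the mitochondrial gene higher at 1:10000. The asparagine pair overlapped between groups, with NARS1 over NARS2 at 1.43 ± 0.07 at 1:10000, against 1.55 ± 0.17 in unexposed cells, and both genes were called higher.

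**Figure D4:**
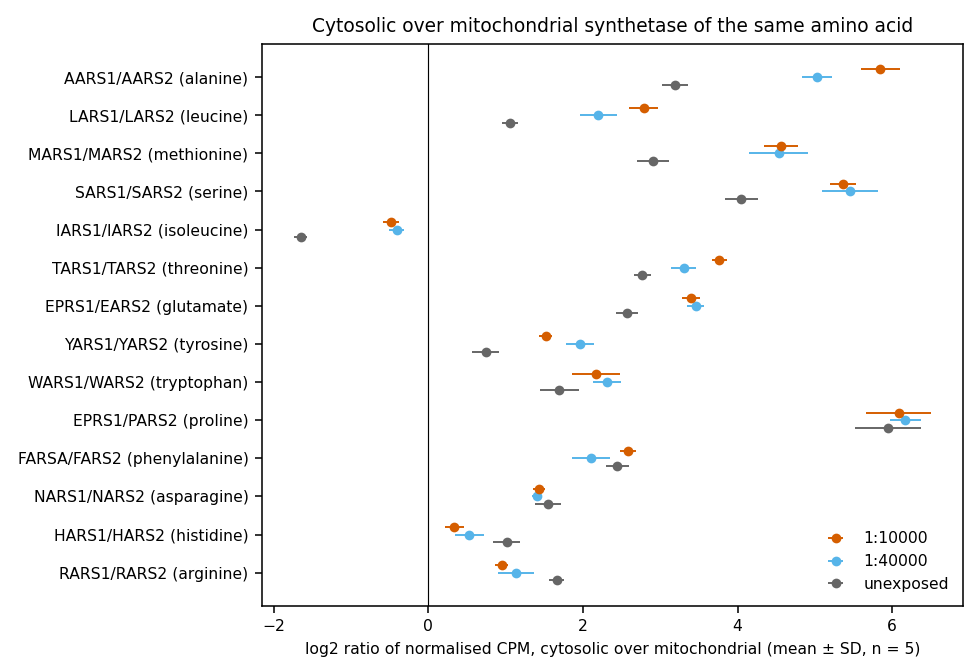
Log2 ratio of CPM of the cytosolic over the mitochondrial synthetase of the same amino acid (mean ± SD, 5 libraries) for 14 pairs at 1:10000 (orange), 1:40000 (blue) and in unexposed cells (grey). At 1:10000 the alanine and leucine ratios differ most from the unexposed values, and at both dilutions the histidine and arginine means lie below them.

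Between the dilutions, which share aligner and annotation, 10 of 19 cytosolic genes were called higher at 1:10000 than at 1:40000 and 2 lower, against 28.3% higher and 29.1% lower over all tested genes. The median was 0.15 over the cytosolic genes and -0.01 over all genes, and libraries did not overlap for 9 of 19, against 40.3% of all tested genes. Without VARS1, called higher on the counts given above, and CARS1, 9 of 17 were higher and 2 lower. Of the mitochondrial genes, 4 of 15 were higher and 4 lower, with a median of 0.04 and no overlap for 5. EEF1E1 and AIMP2 were higher, and AIMP1 was not called.

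FARSA differed most among the cytosolic genes other than VARS1, at 86.7 ± 4.09 CPM at 1:10000 and 59.5 ± 4.36 CPM at 1:40000 (log2 fold change 0.53 ± 0.07, adjusted p = 1.9e-07). KARS1 followed at 437 ± 17.5 CPM at 1:10000 and 321 ± 9.06 CPM at 1:40000 (log2 fold change 0.45 ± 0.05, adjusted p = 9.7e-08), then TARS1 (log2 fold change 0.42 ± 0.06, adjusted p = 5.7e-07) and FARSB (log2 fold change 0.38 ± 0.07, adjusted p = 6.1e-05). IARS1 was lower at 1:10000 than at 1:40000 (log2 fold change -0.35 ± 0.06, adjusted p = 1e-05), and so was LARS1 (log2 fold change -0.17 ± 0.06, adjusted p = 0.015). The LARS1 call was lost without 1:10000 replicate 4 (adjusted p = 0.057) or 1:40000 replicate 2 (0.066). It was also lost without the deepest and shallowest 1:40000 libraries (log2 fold change -0.09, adjusted p = 0.23). The call of NARS1 (log2 fold change 0.15 ± 0.06) was lost without 1:10000 replicate 1 or 2 (adjusted p = 0.11 and 0.063), 1:40000 replicate 3 or 5 (0.057 and 0.085) or unexposed replicate 5 (0.069), and that of WARS1 (0.21 ± 0.08) without 1:10000 replicate 3 or 5 (0.075 and 0.058) or 1:40000 replicate 1 (0.058). NARS1 also lost its call with upper-quartile scaling (adjusted p = 0.14), without the filter on low counts (0.45) and with the 2 groups alone (0.060). WARS1 lost its call with upper-quartile scaling (0.081), without the filter (0.20) and without the deepest and shallowest 1:40000 libraries (0.13). The remaining calls were those of GARS1, MARS1 and RARS1, at 0.28, 0.25 and 0.24.

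Among mitochondrial genes AARS2 and LARS2 were the lowest at 1:10000 relative to 1:40000. AARS2 averaged 15.2 ± 2.34 CPM at 1:10000 and 27.0 ± 2.47 CPM at 1:40000 (log2 fold change -0.81 ± 0.11, adjusted p = 6.7e-07), and LARS2 36.4 ± 2.81 CPM at 1:10000 and 61.9 ± 6.11 CPM at 1:40000 (log2 fold change -0.77 ± 0.08, adjusted p = 7.8e-09). IARS2 (log2 fold change -0.27 ± 0.05, adjusted p = 0.00013) and CARS2 (log2 fold change -0.29 ± 0.10, adjusted p = 0.017) were also lower, the call of CARS2 being lost without 1:40000 replicate 3 or 5 (adjusted p = 0.078 and 0.060). RARS2 (log2 fold change 0.45 ± 0.06, adjusted p = 2.2e-06), YARS2 (log2 fold change 0.38 ± 0.07, adjusted p = 0.00012), WARS2 (log2 fold change 0.33 ± 0.10, adjusted p = 0.0076) and HARS2 (log2 fold change 0.18 ± 0.07, adjusted p = 0.031) were higher. The HARS2 call was lost without 1:10000 replicate 2 or 5 (adjusted p = 0.059 and 0.058), 1:40000 replicate 3 or 5 (0.072 for each) or unexposed replicate 5 (0.058). HARS2 also lost its call with upper-quartile scaling (0.11) and without the filter on low counts (0.39). Without that filter the WARS2 call was lost too (0.070). EEF1E1 had the largest difference of the partners (log2 fold change 0.81 ± 0.20, adjusted p = 0.0016), with every 1:10000 library above every 1:40000 library.

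**Figure D5:**
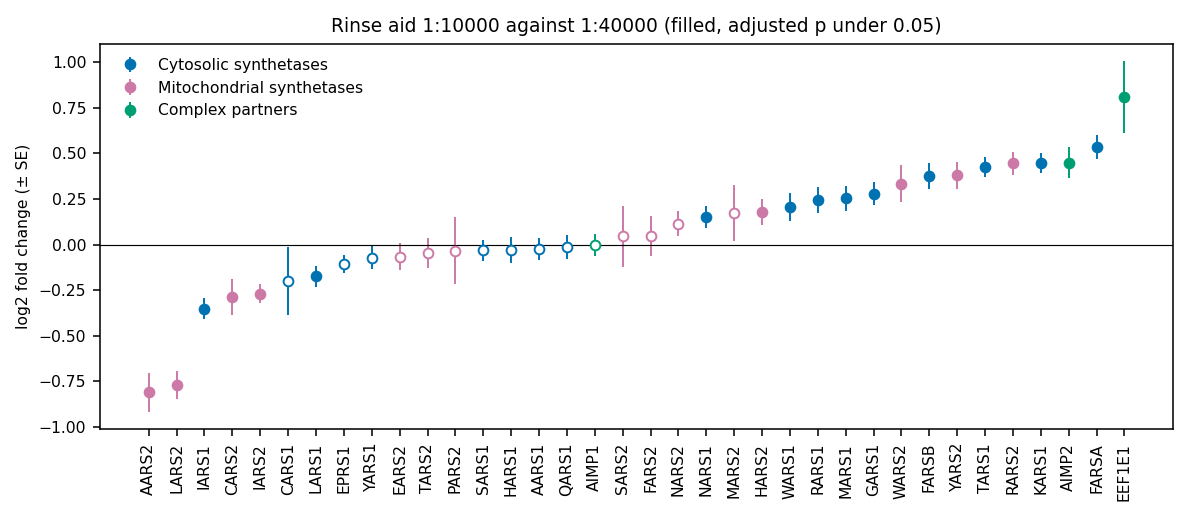
Log2 fold change (± SE) at 1:10000 against 1:40000 of 18 cytosolic synthetases (blue), 15 mitochondrial synthetases (pink) and 3 complex partners (green), from lowest to highest. Filled points had an adjusted p under 0.05, and VARS1 (5.26, on 73 and 11 counts) is not drawn. AARS2 and LARS2 lie at the low end, and EEF1E1 and FARSA at the high end.

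The mean at 1:40000 lay between those of the other groups for 13 of the 15 mitochondrial genes and was lowest for MARS2 and YARS2. Among the 19 cytosolic genes it lay between for 9, was the highest for 7 (AARS1, EPRS1, IARS1, LARS1, QARS1, SARS1 and YARS1) and the lowest for 3 (FARSA, RARS1 and VARS1). The 13 mitochondrial genes include FARS2, PARS2 and SARS2, which were not called in any comparison. The share of all tested genes with their 1:40000 mean between the others was not computed. For AARS1, QARS1, SARS1 and YARS1 the dilutions did not differ by the test and their libraries overlapped. For EPRS1 the libraries of the dilutions did not overlap, and the difference was not called (log2 fold change -0.11 ± 0.05, adjusted p = 0.07). Without 1:10000 replicate 3 or unexposed replicate 5, EPRS1 was called lower at 1:10000 than at 1:40000 (adjusted p = 0.046 and 0.044). Per kilobase of exon, unexposed levels had a median of 29.4 CPM over the cytosolic genes, from 2.66 in CARS1 to 78.6 in AARS1. Over the 15 mitochondrial genes the median was 9.05 CPM per kilobase, from 1.50 in SARS2 to 111 in IARS2.

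Other genes of amino acid sensing and tRNA use were followed in 3 lists. These lists were chosen with earlier results of these data known, so their counts are descriptive. Of 16 genes of the amino acid response, 12 were called higher and 1, EIF2AK1, lower at 1:10000 against unexposed cells (median log2 fold change 1.39), 12 higher and 0 lower at 1:40000 (median 1.01), and 8 higher and 0 lower at 1:10000 against 1:40000 (median 0.21), by edgeR. Those lower at an unadjusted p under 0.05 numbered 0 at 1:40000 and 2 between the dilutions, and DESeq2 called 0 lower in each of the 3 comparisons. Over all tested genes the shares called higher were 34.8%, 26.1% and 28.3% in these comparisons, and those called lower 36.2%, 26% and 29.1%. ATF4 was at 439 CPM at 1:10000 and 223 CPM in unexposed cells (log2 fold change 0.98, and 0.89 at 1:40000). TRIB3, an ATF4 target that feeds back on it, was at 562 CPM at 1:10000 and 77.7 CPM in unexposed cells (log2 fold change 2.86, and 1.99 at 1:40000). The eIF2 kinase genes EIF2AK2, EIF2AK3 and EIF2AK4 were not called in either comparison with unexposed cells.

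Of 13 tested genes of cytosolic tRNA handling, out of 15 listed, 10 were called higher and 2 lower at 1:10000 against unexposed cells (median 0.44), against 34.8% and 36.2% of all tested genes, and 7 higher and 2 lower at 1:40000 (median 0.15), against 26.1% and 26%. DESeq2 called 0 lower at 1:10000 and 1 at 1:40000, and gave no adjusted p for EEF1D, which edgeR called lower at both. XPOT, which exports tRNA from the nucleus, was at 378 CPM at 1:10000 and 175 CPM in unexposed cells (log2 fold change 1.11, and 0.98 at 1:40000). The elongation factor gene EEF1A1, whose protein delivers charged tRNA to the ribosome, had log2 fold changes of 0.90 and 0.60. EEF1D, with 47 transcripts outside the primary assembly, was at 1.46 CPM at 1:10000 and 139 CPM in unexposed cells.

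Of 24 tested genes of mitochondrial tRNA handling and translation, out of 25 listed, 5 were called higher and 8 lower at 1:10000 against unexposed cells (median -0.02), against 34.8% and 36.2% of all tested genes, and likewise 5 and 8 at 1:40000 (median -0.13), against 26.1% and 26%. The share called lower was thus near that of all genes at 1:10000. At 1:10000 against 1:40000, 8 were higher and 5 lower, against 28.3% and 29.1% of all tested genes. GATB and GATC, subunits of the amidotransferase that makes glutaminyl-tRNA in mitochondria, had log2 fold changes of -0.78 and -0.70 at 1:10000 and of -0.52 and -0.41 at 1:40000, and QRSL1, the remaining subunit, had 0.58 and 0.29, all called.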

How the data were processed

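Each deposited file held the raw counts of 1 library by Ensembl gene, and the authors had applied no normalisation to them. Tools named in the submitters' processing notes are cutadapt, featureCounts, STAR 2.7.9a and DESeq2 1.32.0, with genome GRCh38. Per the file headers, control files came from RNA STAR and rinse aid files from HISAT2. The HISAT2 version, the annotation release and the strand setting are not given in the sources used here. Per the labels, polyadenylated RNA was made into libraries with a TruSeq RNA kit.

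Identifiers were matched after their version was dropped (60601 shared, 3802 with another version), which kept 99.977% or more of the counts of every library. Among the members, the version differed between files for YARS1, NARS2, RARS2 and TARS2, and its part in their changes was not tested. Counts were tested with the quasi-likelihood method of edgeR 4.0.16 (R 4.3.3), robustly and with 1 mean per group, after TMM scaling and filterByExpr. P-values were adjusted by Benjamini-Hochberg over 13158 genes in each comparison. The SE of a log2 fold change is its size over the root of the F statistic and is approximate. Levels are TMM-normalised CPM. Positions and overlaps came from GENCODE 29, promoter sequences from RefSeq. A gene counted as near absent where the 2 rinse aid groups were both at least 32-fold away from control and the higher level was 2 CPM or more. The test was run on simulated data with 200 changed genes. Alternatives were DESeq2 1.42.0, other scalings, no filter on low counts, the compared groups alone, a replicate block, near absent genes left out, and libraries left out singly or as a pair.

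Members and lists were chosen with earlier results of these data known. Values in each library are given for the 3 called members with the largest change in each direction, per role, at 1:10000 against control and against 1:40000, for near absent members, and for cytosolic and mitochondrial enzymes of 1 amino acid called in opposite directions. EPRS1, KARS1 and FARSA are given in the same way.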

Additional observations from a re-analysis of the deposited data

Results flagged for a closer look

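In 7 of 111 groups of 5 libraries, 1 library stood apart from the other 4, where chance alone gives about 1 in 20. The highest libraries were AARS1 at 1:40000 in replicate 1 (1005 CPM, the next at 872 CPM), MARS1 at 1:10000 in replicate 2 (495 CPM, the next at 435 CPM), and RARS1, TARS1 and IARS2 at 1:10000 in replicate 1 (181, 447 and 384 CPM, the next at 158, 396 and 345 CPM). The lowest were AARS2 at 1:10000 in replicate 2 (11.2 CPM, the next at 15.5 CPM) and TARS2 in unexposed replicate 5 (30.9 CPM, the next at 35.5 CPM).

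FARSA was called higher at 1:10000 and lower at 1:40000 than in unexposed cells, and the difference between the dilutions was itself called (log2 fold change 0.53, adjusted p = 1.9e-07, edgeR).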

How the results depend on the processing

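Over the alternatives, 833 of 850 member values kept their direction and their side of the threshold at 1:10000 against unexposed cells, 817 of 850 at 1:40000 and 816 of 849 between the dilutions. Calls were lost in 5, 5 and 29 and gained in 12, 28 and 4, and no called value changed sign. With VARS1, CARS1 and SARS2 left out, a choice made after seeing the data, the cytosolic genes called lower were 2 at 1:10000 and 3 at 1:40000, the cytosolic median at 1:40000 was 0.38 and the mitochondrial median at 1:10000 was -0.10. At 1:40000 against unexposed cells, the mitochondrial genes called higher numbered 1, but 2 with DESeq2 size factors or the DESeq2 test, and 3 with upper-quartile scaling, without the filter on low counts, with the 2 groups alone or with the replicate block (1 to 3 with 1 library left out). With upper-quartile scaling and without the filter, the cytosolic median was 0.39 and 0.41 there and the mitochondrial median -0.10 and -0.073. Without the filter the median of all genes moved to 0.16 at 1:40000 (4499 called higher and 2929 lower, against 3440 and 3419) and to -0.21 between the dilutions.

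Between the dilutions the cytosolic median was 0.10 with upper-quartile scaling, 0.085 without the filter, and 0.061 and 0.071 with the 2 groups alone and with near absent genes left out, both of which remove VARS1 (0.11 to 0.19 with 1 library left out). Cytosolic genes called lower there numbered 1 without the deepest and shallowest libraries and 1 to 3 with 1 library left out. Mitochondrial genes called higher there numbered 2 without the filter, where their median was -0.027 (-0.026 to 0.083 with 1 library left out). Unless stated, the cause was not tested. Same-numbered libraries of different groups did not all deviate together (correlations of -0.05 to 0.06, 0.06 to 0.13 and 0.05 to 0.28 in the 3 comparisons, and 1, 3 and 3 of 5 libraries matched their own number best), so the numbers were taken as names only, and the replicate block called 9593, 7314 and 8011 genes against 9344, 6859 and 7543 without it. The block added calls of QARS1 at both dilutions, of MARS2 at 1:10000 and of HARS2, TARS2 and WARS2 at 1:40000, all against unexposed cells. Apart from VARS1 and VARS2, counts were lowest at 1:10000 for CARS1, SARS2 and PARS2 (146, 173 and 251 over 5 libraries).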
